A study of Homo sapiens with 2 samples.

Results

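The miR-550 precursors are near-identical human miRNA hairpins of chromosome 7, called hsa-mir-550a-1, hsa-mir-550a-2, hsa-mir-550a-3, hsa-mir-550b-1 and hsa-mir-550b-2, written below without the species prefix. They were taken by name from tables of reads per miRNA precursor, as all entries that begin with mir-550a or mir-550b. The rule found 5 of the 1038 precursors counted, and all 5 passed a minimum of 100 counts over both libraries, as did 411 of the 1038. Of the 502547 read stacks in the pooled genome-wide list, 1 names such a precursor, mir-550a-3. The precursors were chosen because their AGO3 and AGO2 counts had been seen to differ, so those counts are given as a description, with no test.

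Small RNA was sequenced from HEK293 T-Rex cells, a human embryonic kidney line that carries the tetracycline repressor, expressing FLAG:AGO3 in one library and FLAG:AGO2 in the other. In both, the tagged protein was pulled down with FLAG magnetic beads from an NP40 lysate, and proteinase K and phenol freed the bound RNA. There was 1 library per protein, so no difference has a replicate check. The 3′ adapter sequence also differs between the libraries, and adapter and protein cannot be told apart. In AGO3, 3055417 of 4667236 reads (65.5%) were assigned to precursors, and in AGO2, 3485257 of 6674064 (52.2%). All intervals are 95% intervals by the exact Clopper-Pearson method, which takes each read as an independent draw. They reflect counting error alone. PCR reads that carry no molecular identifiers cannot be taken as independent molecules, so the intervals may be too narrow. Of 13 precursors best known from liver, blood, muscle or pluripotent cells, 2 reached 100 counts (mir-142 and mir-144, both known from blood cells). Muscle precursors ran from 16 counts in AGO3 and 6 in AGO2 for mir-1-1 to 42 and 30 for mir-133a-1. Liver mir-122 had 2 counts in AGO3 and 1 in AGO2. Myeloid mir-223 had 0 in both, which allows up to 0.982 CPM (counts per 1000000 precursor counts) in AGO3 and 0.861 in AGO2.

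An miRNA is cut from a hairpin by Drosha and Dicer, and usually a single strand of the product is held by an Argonaute protein. The bases from the second to the eighth, the seed, then choose the target RNAs, so a shift of the 5′ end by a single base changes the target set. AGO2 is the Argonaute best known for slicing its targets, whereas AGO3 mainly represses them through partner proteins. When a hairpin's DNA is nearly its own reverse complement, the opposite strand can also fold into a hairpin, and such a pair of entries is hard to tell apart by sequence.

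The mature sequences are shown because copies and strands share most of their bases. RefSeq (GRCh38.p14) gives 5 for these hairpins, printed 5′ to 3′ with the seed in capitals.
hsa-miR-550a-5p: aGUGCCUGagggaguaagagccc
hsa-miR-550a-3-5p: aGUGCCUGagggaguaagag
hsa-miR-550b-2-5p: aUGUGCCUgagggaguaagaca
hsa-miR-550a-3p: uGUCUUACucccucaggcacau
hsa-miR-550b-3p: uCUUACUCccucaggcacug

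Both 5p sequences of the a hairpins share the seed GUGCCUG, and the 5p sequence of the b hairpins has the seed UGUGCCU. The a and b 5p sequences hold a common run of 18 bases, gugccugagggaguaaga, which sits 1 base further from the 5′ end in the b sequence. On the 3p side the seeds are GUCUUAC for a and CUUACUC for b. The 3p sequences share an 18-base run as well, ucuuacucccucaggcac, which starts at base 3 of the a sequence and at base 1 of the b sequence. On each arm the a and b miRNAs thus share 18 bases at a different distance from the 5′ end. Their seeds differ by that shift, and their 3′ ends differ as well.

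The hairpins show how the copies relate. In mir-550a-1 (chr7:30289794-30289890, plus strand) and in mir-550b-1 (the same positions, minus strand), capitals mark the mature sequences.
mir-550a-1: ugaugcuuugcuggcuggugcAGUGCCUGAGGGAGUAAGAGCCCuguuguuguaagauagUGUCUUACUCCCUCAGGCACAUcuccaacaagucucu
mir-550b-1: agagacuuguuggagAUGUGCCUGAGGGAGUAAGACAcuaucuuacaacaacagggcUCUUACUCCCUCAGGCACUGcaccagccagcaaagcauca
In mir-550a-2 (chr7:32732981-32733077, plus strand) and mir-550a-3 (chr7:29680734-29680828, minus strand), capitals mark the bases that differ from mir-550a-1.
mir-550a-2: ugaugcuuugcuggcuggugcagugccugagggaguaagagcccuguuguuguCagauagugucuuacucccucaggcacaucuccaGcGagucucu
mir-550a-3: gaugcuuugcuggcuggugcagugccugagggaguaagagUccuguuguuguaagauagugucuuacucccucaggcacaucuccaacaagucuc

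Over its whole length, each b hairpin is the reverse complement of the a hairpin of its locus, mir-550b-1 of mir-550a-1 and mir-550b-2 of mir-550a-2. With positions counted from the 5′ end of mir-550a-1, mir-550a-2 differs from it by A54C, A88G and A90G. The mature sequences of mir-550a-1 lie at positions 22 to 44 and 61 to 82, so all 3 changes fall outside them. The shorter mir-550a-3, of 95 bases against 97, differs by C42U alone, which is base 21 of hsa-miR-550a-5p. Consequently the a-3p sequence is held by 3 hairpins, hsa-miR-550a-5p by 2, and each b sequence by 2, and none of the 5 mature sequences occurs in a single hairpin.

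Predicted folding energies were similar on the strands of locus 1, at −44.3 kcal/mol for mir-550b-1 and −45.6 for mir-550a-1. On locus 2 they were −47.4 for mir-550b-2 and −54.1 for mir-550a-2, and mir-550a-3 stood at −44.6. In RefSeq, locus 1 lies in ZNRF2, which encodes an E3 ubiquitin ligase, and mir-550a-3 lies in the long non-coding RNA gene MIR550A3HG. No other gene of that annotation overlaps locus 2.

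A sliding window of 22 bases, about the length of an miRNA, was used to count how much of each hairpin is its own. In mir-550a-1, 11 of 76 windows occur in no other of the 5 hairpins. The number was 32 of 76 in each of mir-550a-2, mir-550b-1 and mir-550b-2. In mir-550a-3 it was 22 of 74, and all 22 hold the differing base named above. Most of each hairpin is therefore shared with at least 1 copy when strand is known. The sources used here do not state whether counting used strand or where reads matching several precursors were placed. The counts of the single copies are uncertain for that reason, and their sum, if each read was counted once, does not depend on the split.

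**Figure D1:**
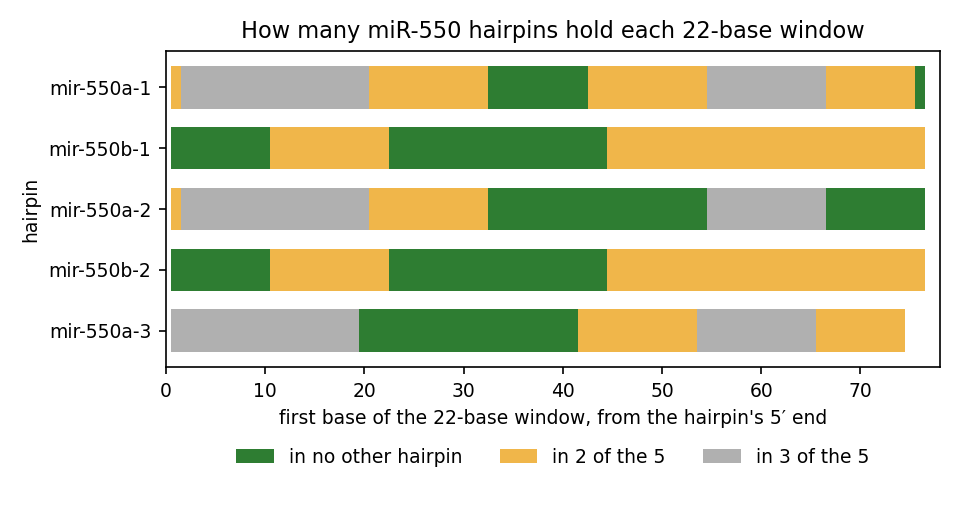
Each row is 1 hairpin and each position along the x axis is the first base of a 22-base window, counted from the 5′ end; the colour gives how many of the 5 hairpins hold that window. Green stretches occur in no other hairpin, 11 of 76 windows in mir-550a-1 and 32 of 76 in mir-550b-1.

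All 5 precursors had more counts in AGO3 than in AGO2. In AGO3, mir-550a-1 had 1132 counts, or 370.5 CPM (interval 349 to 393), and in AGO2 it had 225, or 64.6 CPM (56.4 to 73.6). Its opposite-strand partner mir-550b-1 had 1097 counts in AGO3, or 359 CPM, and the same 225 in AGO2. The next copy, mir-550a-2, had 853 counts (279 CPM) in AGO3 and 194 (55.7 CPM) in AGO2. These are also the 3 highest entries of the family in each library. Below them, mir-550b-2 had 657 counts (215 CPM) in AGO3 and 124 (35.6 CPM) in AGO2. The lowest was mir-550a-3, with 537 counts (176 CPM) in AGO3 and 119 (34.1 CPM) in AGO2.

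The order of the copies was the same in both libraries, with a tie of mir-550a-1 and mir-550b-1 in AGO2. In AGO3, the intervals of mir-550a-1 and mir-550b-1 overlapped, and the other neighbours in the order were separated. In AGO2 the intervals overlapped between mir-550b-1 and mir-550a-2 and between mir-550b-2 and mir-550a-3, and those of mir-550a-2 and mir-550b-2 did not. The a copies share mature sequences with one another, as do the b copies. Whether the order reflects the levels of the copies or the placing of shared reads was not tested. The lowest AGO3 level of a member lay above the highest AGO2 level of any member. Nothing is read from this, because the members were chosen by these counts and may share reads.

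**Figure D2:**
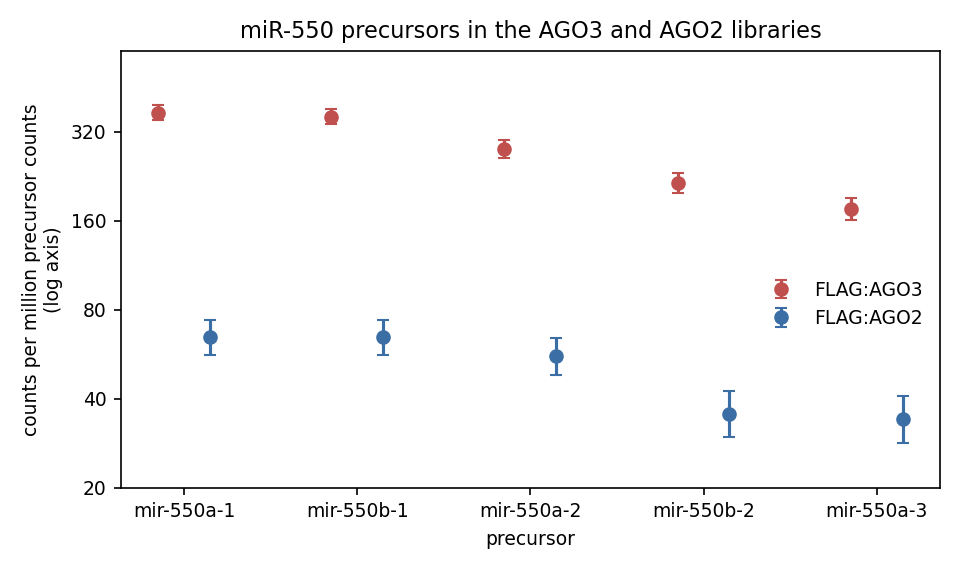
CPM (log axis) of the 5 miR-550 precursors in the FLAG:AGO3 and FLAG:AGO2 libraries, 1 library each, with exact 95% intervals for counting error. The AGO3 points run between 176 and 370.5 CPM and the AGO2 points between 34.1 and 64.6 CPM.

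Summed over the 5 copies, miR-550 had 4276 counts in AGO3, or 1399 CPM (1358 to 1442), and 887 in AGO2, or 255 CPM (238 to 272). The AGO3 level was 5.50-fold the AGO2 level (5.11 to 5.92), a log2 ratio of 2.46 (2.35 to 2.57). Single copies ran from 2.32 (2.10 to 2.56) for mir-550a-2 and 2.36 (2.07 to 2.66) for mir-550a-3 to 2.59 (2.32 to 2.88) for mir-550b-2. Between them were mir-550b-1 at 2.47 (2.27 to 2.69) and mir-550a-1 at 2.52 (2.31 to 2.73). All 5 intervals overlap one another. The copies share mature sequences, and where shared reads were placed is not stated. Their likeness therefore cannot be taken as 5 separate measurements. The a copies summed to 2.42 (2.28 to 2.56) and the b copies to 2.52 (2.35 to 2.69).

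In AGO3 all 5 copies reached 2-fold, as did 65 of the 411 precursors with at least 100 counts (15.8%), while 36 (8.76%) were at least 2-fold lower. The copies were picked by this difference, so nothing is read from that count. The split of higher and lower precursors moved with the scaling: it was 56 and 55 with median-of-ratios factors, 56 and 52 with TMM factors, and 107 and 16 when counts were scaled to all reads of a library. The median log2 ratio was 2.47 over the 5 copies and 0.08 over all 411 precursors. The summed miR-550 ratio lay 2.37 above that overall median on the log2 scale, a distance that a scaling of the libraries cannot change, since it shifts all precursors alike.

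**Figure D3:**
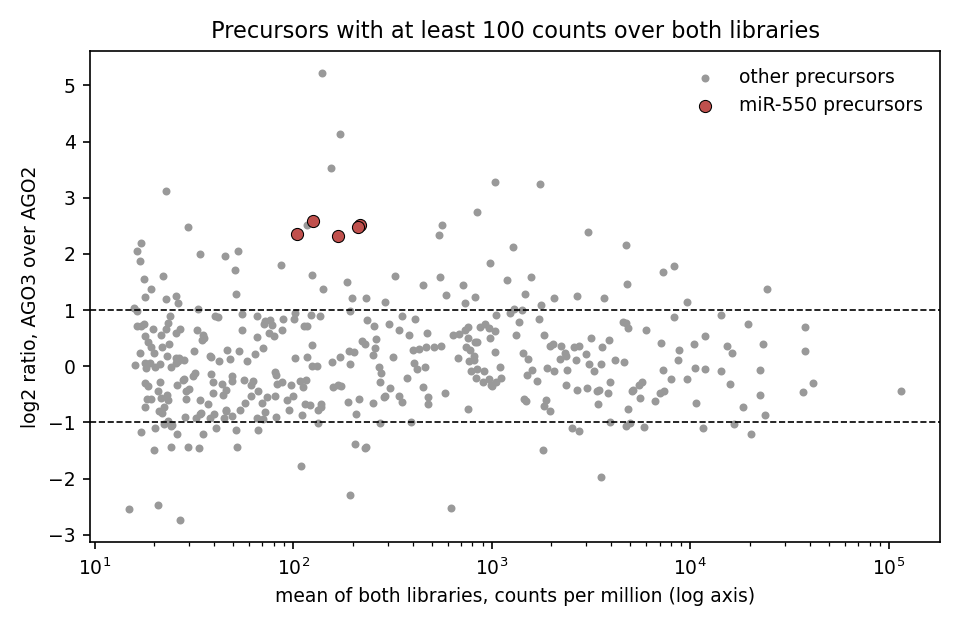
Log2 ratio of AGO3 over AGO2 against the mean level of both libraries in CPM (log axis) for 411 precursors; dashed lines mark 2-fold. The 5 miR-550 precursors, in red, sit together between 2.32 and 2.59.

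Among the other 406 precursors, 10 had a higher ratio than the miR-550 sum and 139 had more counts. The sum adds all miR-550 copies, whereas the copies of other families were not summed here. The precursors nearest to it in log2 ratio over these 2 libraries were mir-659 at 2.47 (1.93 to 3.10), mir-3158-1 at 2.52 (2.24 to 2.82), mir-138-1 at 2.52 (2.39 to 2.65) and mir-629 at 2.39 (2.34 to 2.45). With 2 libraries, likeness rests on a single ratio, and many precursors can share it. They differ widely in level: mir-629 had 5132 CPM in AGO3 and 976 in AGO2, whereas mir-659 had 50.1 and 8.89. Precursors at the same mean level as the miR-550 sum (827 CPM) were mir-326 at 1.23 and mir-31 at 0.43 just above it, and mir-4523 at 0.12 and mir-708 at 0.18 just below.

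Outside the family, 2 RefSeq mature sequences carry a miR-550 seed. The first is hsa-miR-1271-3p, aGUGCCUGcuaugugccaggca, which has the seed of the a-5p sequences. Its hairpin mir-1271, on chromosome 5, had 4704 counts in AGO3 and 1505 in AGO2, a log2 ratio of 1.83 (1.75 to 1.92). The second is hsa-miR-200c-5p, cGUCUUACccagcaguguuugg, with the seed of the a-3p sequence. Its hairpin mir-200c, known for keeping cells epithelial, had 17 counts in AGO3 and 17 in AGO2. Counts cover both arms of a hairpin, so neither value is that of the arm with the seed.

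The split of the miR-550 counts among the copies was alike in both libraries. The entry mir-550a-1 held 26.5% (25.2 to 27.8) of them in AGO3 and 25.4% (22.5 to 28.4) in AGO2. At the low end, mir-550a-3 held 12.6% (11.6 to 13.6) in AGO3 and 13.4% (11.2 to 15.8) in AGO2. For all 5 copies the AGO3 and AGO2 intervals overlapped. Within locus 1 the b entry took 49.2% (47.1 to 51.3) of the counts in AGO3 and 50.0% (45.3 to 54.7) in AGO2. Within locus 2 the b entry took 43.5% (41.0 to 46.1) in AGO3 and 39.0% (33.6 to 44.6) in AGO2, below an even split in both. The partners of a locus are exact reverse complements, and the use of strand in counting is not stated. Without strand, each read of a locus fits both entries equally, and the split would be set by read placement. How much of this split belongs to the strands themselves was not tested.

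**Figure D4:**
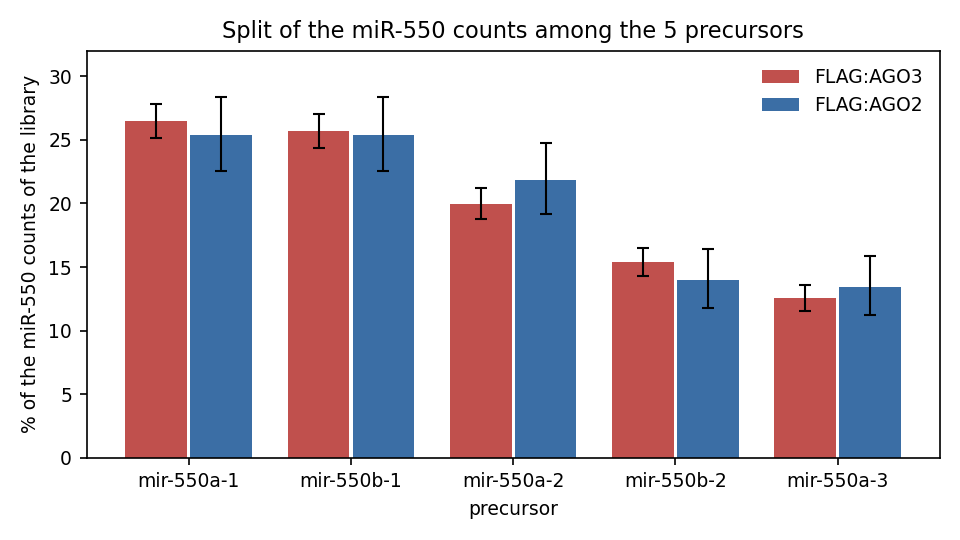
Share of each of the 5 precursors in the miR-550 counts of the FLAG:AGO3 and the FLAG:AGO2 library, in percent, with exact 95% intervals. The intervals of the libraries overlap for every precursor, from 26.5% and 25.4% for mir-550a-1 to 12.6% and 13.4% for mir-550a-3.

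Opposite-strand hairpins were compared as pairs, since other loci also have hairpins on both strands. The miR-550 partners are reverse complements over their whole length, which was not checked for the other pairs. If strand was not used in counting, such partners draw on the same reads, and a small gap would follow from read placement. The log2 ratios of the miR-550 partners differed by 0.05 in locus 1 and by 0.27 in locus 2. A list of 17 other pairs held 10 with at least 100 counts in both hairpins together, and RefSeq places the hairpins of all 10 on opposite strands of the same stretch. Their gaps ranged from 0.01 to 3.15 with a median of 0.94. The smallest were those of mir-374b with mir-374c (−0.27 and −0.29) and of mir-103a-1 with mir-103b-1 (−0.33 and −0.38). Other pairs with a gap under 1 were mir-7-2 with mir-3529 (−0.77 and −0.65), mir-499a with mir-499b (−0.94 and −1.13) and mir-24-1 with mir-3074 (0.79 and −0.09). As in both miR-550 loci, 2-fold or more towards AGO3 was reached by each hairpin of 3 pairs: mir-642a with mir-642b (4.13 and 5.22), mir-3158-1 with mir-3158-2 (2.52 and 3.52) and mir-3130-1 with mir-3130-2 (1.93 and 3.30). The AGO2 counts behind these ratios were low for mir-642b (25), mir-3130-1 (22) and mir-3130-2 (8). The widest gap was that of mir-103a-2 with mir-103b-2 (−0.99 and 2.17), and mir-423 with mir-3184 stood at 2.13 and 0.75. These gaps are described only; no test between the pairs was made.

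**Figure D5:**
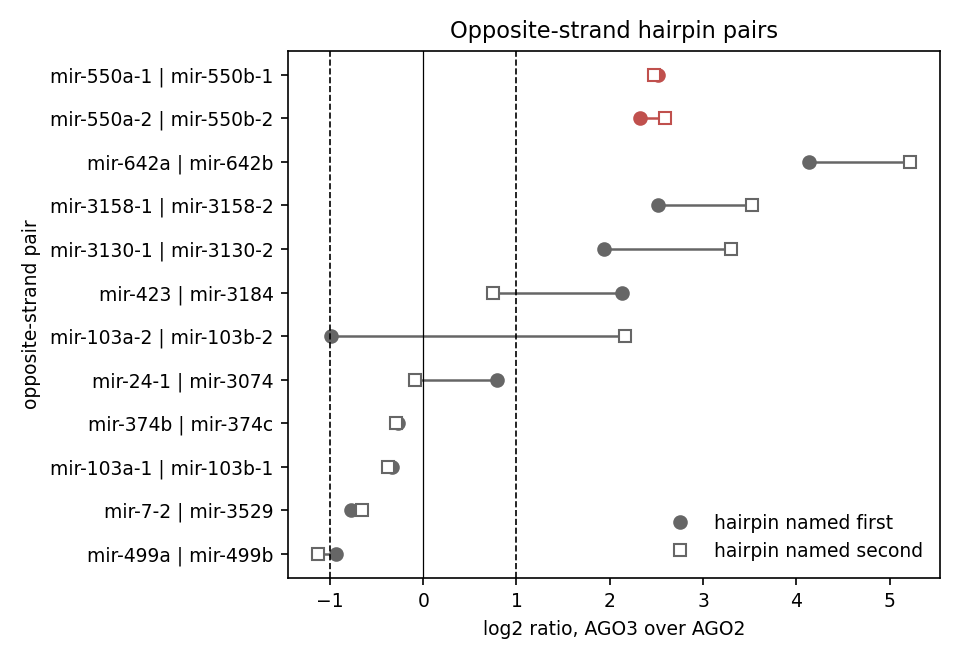
Log2 ratio of AGO3 over AGO2 for both hairpins of 12 opposite-strand pairs, the first-named as a filled circle and the second-named as an open square; dashed lines mark 2-fold. The miR-550 pairs, in red, have gaps of 0.05 and 0.27, against a median of 0.94 over the other 10 pairs. Complementarity over the whole length was checked for the miR-550 pairs alone.

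The other miRNA precursors of chromosome 7 ran from −1.09 to 1.60 in log2 ratio, below the lowest miR-550 ratio of 2.32. That ratio, of mir-550a-2, ranked 17 from the highest among 411 precursors. The miR-550 copies were chosen for their difference, so nothing is read from their place above the chromosome. Of the 21 others with at least 100 counts, 3 reached 2-fold towards AGO3 and 1 towards AGO2, against 15.8% and 8.76% of all precursors. The median log2 ratio of these 21 was −0.08. The higher ones were mir-29b-1 at 1.60 (1.49 to 1.71), of a family that represses collagen genes, the neuronal mir-129-1 at 1.45 (1.33 to 1.57) and mir-1285-1 at 1.21 (1.04 to 1.38). The lower one was mir-548n at −1.09 (−1.50 to −0.71).

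The pooled stacks, which keep strand but do not separate libraries, name mir-550a-3 alone. They hold 68649476 reads, 6.05 times the 11341300 reads of the AGO3 and AGO2 libraries together, and the sources used here do not state which libraries were pooled. Its stack lies at chr7:29720390-29720427 on the minus strand in build hg19, a different build from that of the hairpin positions above. It is annotated as an exon of MIR550A3 within intron 1 of the non-coding LOC646762, and it holds 1554 reads over 38 bases. No stack carries the name of mir-550a-1, mir-550a-2, mir-550b-1 or mir-550b-2 on either strand. All but 1 of the 502547 stacks bear a mark that begins with UNIQ in the authors' mapping field. Among precursors with at least 100 counts, 46 of 86 numbered copies (53.5%) and 35 of 325 other precursors (10.8%) were named in no stack. Whether unique mapping left the other miR-550 copies without a stack was not tested.

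Compared with the 321 miRNA stacks of at least 1000 reads, the mir-550a-3 stack was short, at 38 bases against a median of 60, and 123 of the 321 were no longer than it. It carried 0.0920 edits, that is, differences from the reference, per read, and 301 of the 321 carried more (median 0.156). Its entropy score, the authors' measure of how spread its reads are, was 0.839 against a median of 1.10, and 188 of the 321 scored higher. It held 2.37 stack reads for each of its 656 counts over both libraries, where the median of 330 precursors was 6.46 (quartiles 2.18 and 16.7). Set against the 5163 counts of the whole family it held 0.301. Since the pool is larger than both libraries, these ratios only rank precursors within the list and give no share of AGO3 or AGO2 reads. Stacks naming ZNRF2 held 33 reads in sense and 5 in antisense, and those naming LOC646762 outside the hairpin held 4 in sense and 1 in antisense. The pseudogene ZNRF2P1, which lies near locus 2 in RefSeq, had 2 reads in sense and 5 in antisense. The vesicle transport gene AVL9, which some stacks name together with ZNRF2P1, had 164 in sense over 71 stacks and 186 in antisense over 77.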

How the data were processed

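Small RNA bound to FLAG:AGO3 or FLAG:AGO2 was measured in 1 library each. The deposited tables give raw counts per miRNA precursor, which sum to the mapped reads of the file headers, with both arms of a hairpin together. The deposited stack list gives reads per stack over pooled libraries and an entropy score, per the file headers and fields. The submitters' processing notes name Bowtie2 2.1.0 and the hg19 build but give them no role. The sources used here do not state the use of strand, the mismatches allowed or the placing of reads with several matches.

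For each precursor, its share of the library's precursor counts in AGO3 was divided by that in AGO2 and put on the log2 scale, after adding 0.5 counts adjusted for library size; the interval is the exact 95% interval of the AGO3 part. Levels in CPM are per precursor, not per length. Precursors with at least 100 counts were compared, and a change meant at least 2-fold; with a single library per protein, nothing was tested. A count of 0 was taken to allow up to 3. The computation was tested on simulated data. Sequences came from RefSeq (GRCh38.p14), where 1005 of 1038 precursors matched by symbol. RNAfold 2.7.2 gave folding energies. Alternatives used median-of-ratios and TMM factors (edgeR 4.0.16, R 4.3.3), all reads, other count minimums, another pseudocount and other sums. Scripts ran under Python 3.11.15 with scipy 1.17.1, numpy 2.4.6, matplotlib 3.10.9 and pandas 2.3.3.

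Named besides the family were the 4 precursors nearest in ratio to its sum, the 2 nearest in level on each side, opposite-strand pairs with at least 100 counts together, precursors that share a seed, and chromosome 7 precursors at least 2-fold apart. The members and lists were chosen with earlier results of these data known.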

Additional observations from a re-analysis of the deposited data

How the results depend on the processing

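In all 28 alternative values of the 5 copies and their sum, AGO3 stayed at least 2-fold above AGO2, with log2 ratios from 2.13 to 2.92. The copies were picked by this difference and may share reads, so these values describe the processing and add no support. Scaling moved every precursor together: the median of all precursors shifted by −0.19 with median-of-ratios factors, by −0.16 with TMM factors and by 0.33 with all reads of a library. The miR-550 sum was 2.27 with median-of-ratios factors, 2.30 with TMM factors and 2.78 with all reads. With all reads the copies stood at 2.84 (mir-550a-1), 2.65 (mir-550a-2), 2.68 (mir-550a-3), 2.80 (mir-550b-1) and 2.92 (mir-550b-2). The number of precursors at least 2-fold higher in AGO3 was 107 with all reads, 242 with no minimum on counts, 115 with a minimum of 20 and 38 with a minimum of 1000. The number at least 2-fold lower was 55 with median-of-ratios factors, 16 with all reads, 194 with no minimum, 69 with a minimum of 20 and 16 with a minimum of 1000. A higher or absent minimum changes how many precursors are compared, from 221 to 1038. The other 29 alternatives, with a pseudocount of 1, single strands or loci and other choices of stacks among them, stayed within counting error or within 1.5 times the count. No paired analysis was possible because each group holds 1 library and no test was made. Depth limits the single copies most in AGO2, where mir-550a-3 rests on 119 counts.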
